A study of Homo sapiens and Mus musculus with 27 samples.

Results

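The 9 genes described here are NFE2L2, which encodes the transcription factor NRF2, and 8 antioxidant genes that it is known to switch on: HMOX1, NQO1, GCLC, GCLM, TXNRD1, SRXN1, SLC7A11 and OSGIN1. They were chosen by name, with earlier results of these data known. All 9 were found in each human count table among 78932 features and, as the mouse orthologs, in the mouse table among 25239. All 9 passed the filter on low counts in each dataset, with 19461 genes tested for HCC1937, 16498 for MDA-MB-231 and 15846 for 4T1. The lowest count of any of the 9 in a library was 14 for HCC1937, 299 for MDA-MB-231 and 99 for 4T1.

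The study sequenced poly(A) RNA from 27 libraries in 9 groups of 3. HCC1937, a human breast cancer cell line, received vehicle, TM at 10 µM or AMD3100 at 10 µM, with no bortezomib in any group. MDA-MB-231, a mesenchymal human breast cancer line, received vehicle or bortezomib at 10 nM, which was joined by TM in one arm and by AMD3100 in the other, each at 10 µM. 4T1 mouse mammary tumours grown in Balb/c mice were taken from vehicle animals and from 2 bortezomib arms (1 mg/kg, given every 4 days). One arm also had TM at 0.05 mg/ml in the drinking water, and the other had AMD3100 at 5 mg/kg every 2 days. Treatment times and the ages of the mice are not given in the labels. Bortezomib inhibits the proteasome and AMD3100 blocks the chemokine receptor CXCR4, while TM is used as a name only, since the labels do not expand it. No group had bortezomib by itself, and against vehicle the effects of bortezomib and of its partner cannot be told apart. The labels call the libraries of a group biological replicates without naming separate cultures, so the p-values for the cell lines measure the spread between these libraries.

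NRF2 is kept low in resting cells by KEAP1, an adaptor that hands it to the CUL3 ubiquitin ligase for destruction by the proteasome. Oxidants and electrophiles that modify KEAP1, or loss of the proteasome step, let NRF2 build up, pair with small MAF proteins and bind antioxidant response elements. BACH1, a heme-sensitive repressor, competes for the same elements and is best known for holding HMOX1 down. In tumours a raised NRF2 programme is known for drug tolerance and for a large cysteine and glutathione supply.

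Total counts per library were 35981504 to 43973262 in HCC1937, 40389469 to 50283398 in MDA-MB-231 and 38407536 to 50735374 in 4T1. The HCC1937 library AMD3100 replicate 1 stood apart: 19.9% of its counts were mitochondrial against 10.54% to 11.63% in the other 8, and 20639 genes had a count against at least 29335. Its log2 balance of long against short genes, defined below, was 0.776, against -0.154 to -0.0188 in the other 8. Its values are included unless stated otherwise, and the HCC1937 calls and correlations are given with and without it. In HCC1937 the epithelial markers KRT8 (median 1726 CPM, counts scaled to a common library size) and KRT18 (622 CPM) were high. EPCAM (0.144 CPM), CDH1 (0.838 CPM), KRT14 (0.0958 CPM) and KRT5, at 0 in the median library, were near or at 0. HCC1937 is usually described as a basal-like epithelial line, so these markers go against the label, and HCC1937 below means the libraries so labelled. In the median library of MDA-MB-231 the mesenchymal markers VIM, FN1 and ZEB1 were at 927, 53.0 and 3.98 CPM. In HCC1937 they were at 372, 0.618 and 11.1 CPM. Of the epithelial markers in MDA-MB-231, CDH1 and KRT5 were at 0, EPCAM at 1.58 CPM and KRT14 at 1.96 CPM. KRT8 (332 CPM) and KRT18 (194 CPM) were well above 0 there too. 1 vehicle tumour of 4T1 carries another species and line in some labels and was kept by its title and table column.

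The proximal promoters of the 9 genes were searched for the core of the antioxidant response element, TGACNNNGC, on both strands. Elements elsewhere around the genes were not searched. RefSeq promoter sequences on GRCh38.p14, from 250 bases before to 50 bases after a start, covered 7 of the 9 genes in 9 windows. GCLM held the core in its window and TXNRD1 in the window of each of its starts. Counted by window rather than by gene, 13.3% of all 35116 promoter windows of the same 300 bases held it. The stretches that carry it wholly upstream of the start are shown. The window of the first TXNRD1 start held 2 matches, and the other, not wholly upstream of the start, is not shown. Genes with and without a match rose with bortezomib in MDA-MB-231, OSGIN1, NQO1 and SRXN1 being among those without. Each is written 5′ to 3′ on the strand of the gene, with the core in capitals.
GCLM, chr1:93909431-93909500, minus strand, core on the opposite strand at -34 to -26: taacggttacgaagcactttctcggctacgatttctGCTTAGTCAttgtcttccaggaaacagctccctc
TXNRD1, first start, chr12:104215650-104215719, plus strand, core on the same strand at -99 to -91: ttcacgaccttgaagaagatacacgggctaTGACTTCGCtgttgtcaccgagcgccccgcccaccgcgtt
TXNRD1, second start, chr12:104286900-104286969, plus strand, core on the opposite strand at -102 to -94: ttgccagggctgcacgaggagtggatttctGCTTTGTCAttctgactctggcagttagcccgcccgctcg
These letters are a match, not a measured site. The windows of NQO1, GCLC, SRXN1, OSGIN1 and NFE2L2 held no match, which says only that the letters are not in those 300 bases.

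In GENCODE release 29 on GRCh38, the members lie on separate chromosomes or far apart. HMOX1 spans chr22:35380361-35394214 on the plus strand, NQO1 chr16:69706996-69726951 on the minus strand and GCLC chr6:53497341-53616970 on the minus strand. GCLM spans chr1:93885205-93909456, minus, TXNRD1 chr12:104215779-104350305, plus, and SRXN1 chr20:646615-653370, minus. SLC7A11 spans chr4:138164097-138242349, minus, OSGIN1 chr16:83948282-83966332, plus, and NFE2L2 chr2:177227595-177392697, minus. Counts are per gene over annotated exons. Exons of NFE2L2 overlap those of AGPS on the other strand, and AGPS averaged 59.5 CPM in HCC1937 and 26.99 in MDA-MB-231, so NFE2L2 reads from the shared stretch are uncertain. HMOX1, GCLM and TXNRD1 overlap no exon of another gene.

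Levels in CPM and RPKM, here and in the plots, are scaled within each line's own table, so they order the genes inside a line and are not compared across lines. Per unit of gene length, NQO1 led in both vehicle groups and TXNRD1 came second. NQO1 reduces quinones with NAD(P)H and TXNRD1 recharges thioredoxin. In HCC1937 vehicle cells NQO1 was at 132 ± 2.47 RPKM (CPM per kilobase of gene; mean ± SD, n = 3), TXNRD1 at 81.9 ± 3.81, HMOX1 at 22.98 ± 1.13 and GCLM at 15.3 ± 1.43. NFE2L2 (4.41 ± 0.153 RPKM) and GCLC (4.10 ± 0.254 RPKM) were neighbours within about their spread, followed by SLC7A11 at 1.83 ± 0.105, OSGIN1 at 1.06 ± 0.134 and SRXN1 at 0.616 ± 0.0816. In MDA-MB-231 vehicle cells the RPKM was 112 ± 2.47 for NQO1, 28.8 ± 5.36 for TXNRD1, 10.6 ± 1.88 for GCLM and 5.56 ± 0.175 for HMOX1. SRXN1 (2.42 ± 0.309 RPKM) and OSGIN1 (2.30 ± 0.2499) did not differ beyond their spread, nor did SLC7A11 (1.88 ± 0.404) and GCLC (1.56 ± 0.488), and NFE2L2 was lowest at 0.961 ± 0.261. This order rests on the deposited gene lengths. In CPM TXNRD1 (550 ± 25.5) lay above NQO1 (393 ± 7.34) in HCC1937 vehicle. In MDA-MB-231 vehicle NFE2L2 was at 14.4 ± 3.90 CPM, and SRXN1 was lowest at 6.11 ± 0.782 CPM.

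Between the vehicle groups of the lines, SRXN1 and OSGIN1 were higher in MDA-MB-231 while NFE2L2 and HMOX1 were lower. In a fit over the 18 human libraries, 8 of 9 members were called at an adjusted p under 0.05, against 62.6% of the 21590 genes tested. Higher in MDA-MB-231 were SRXN1 (log2 difference 2.59 ± 0.36, SE), the enzyme that repairs overoxidised peroxiredoxins, OSGIN1 (1.73 ± 0.24), a growth-restraining stress gene, SLC7A11 (0.66 ± 0.17) and NQO1 (0.38 ± 0.094). Lower were NFE2L2 (-1.58 ± 0.34), HMOX1 (-1.43 ± 0.23), TXNRD1 (-0.88 ± 0.18) and GCLC (-0.77 ± 0.22), all by edgeR. GCLM, at 0.092 ± 0.20, was not called. These differences rest on the scaling across the lines. In the joint scaling NQO1 was at 408 ± 1.16 CPM in MDA-MB-231 vehicle and 314 ± 6.14 in HCC1937 vehicle (mean ± SD, n = 3 each), while scaled within each table it was at 332 and 393 CPM, the other way round. With library sizes alone, a scaling chosen after the data were seen, 6 members were called, and NQO1 (0.023, edgeR adjusted p = 0.797) and SLC7A11 (0.32, adjusted p = 0.148) were not. The share of all genes called under that scaling is not given here, so the count has no background beside it. NQO1 also lost its call with no low-count filter (0.31, edgeR adjusted p = 0.13). The same 8 were called without the HCC1937 library AMD3100 replicate 1, against 70.4% of genes. The line and its table cannot be told apart here.

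**Figure D1:**
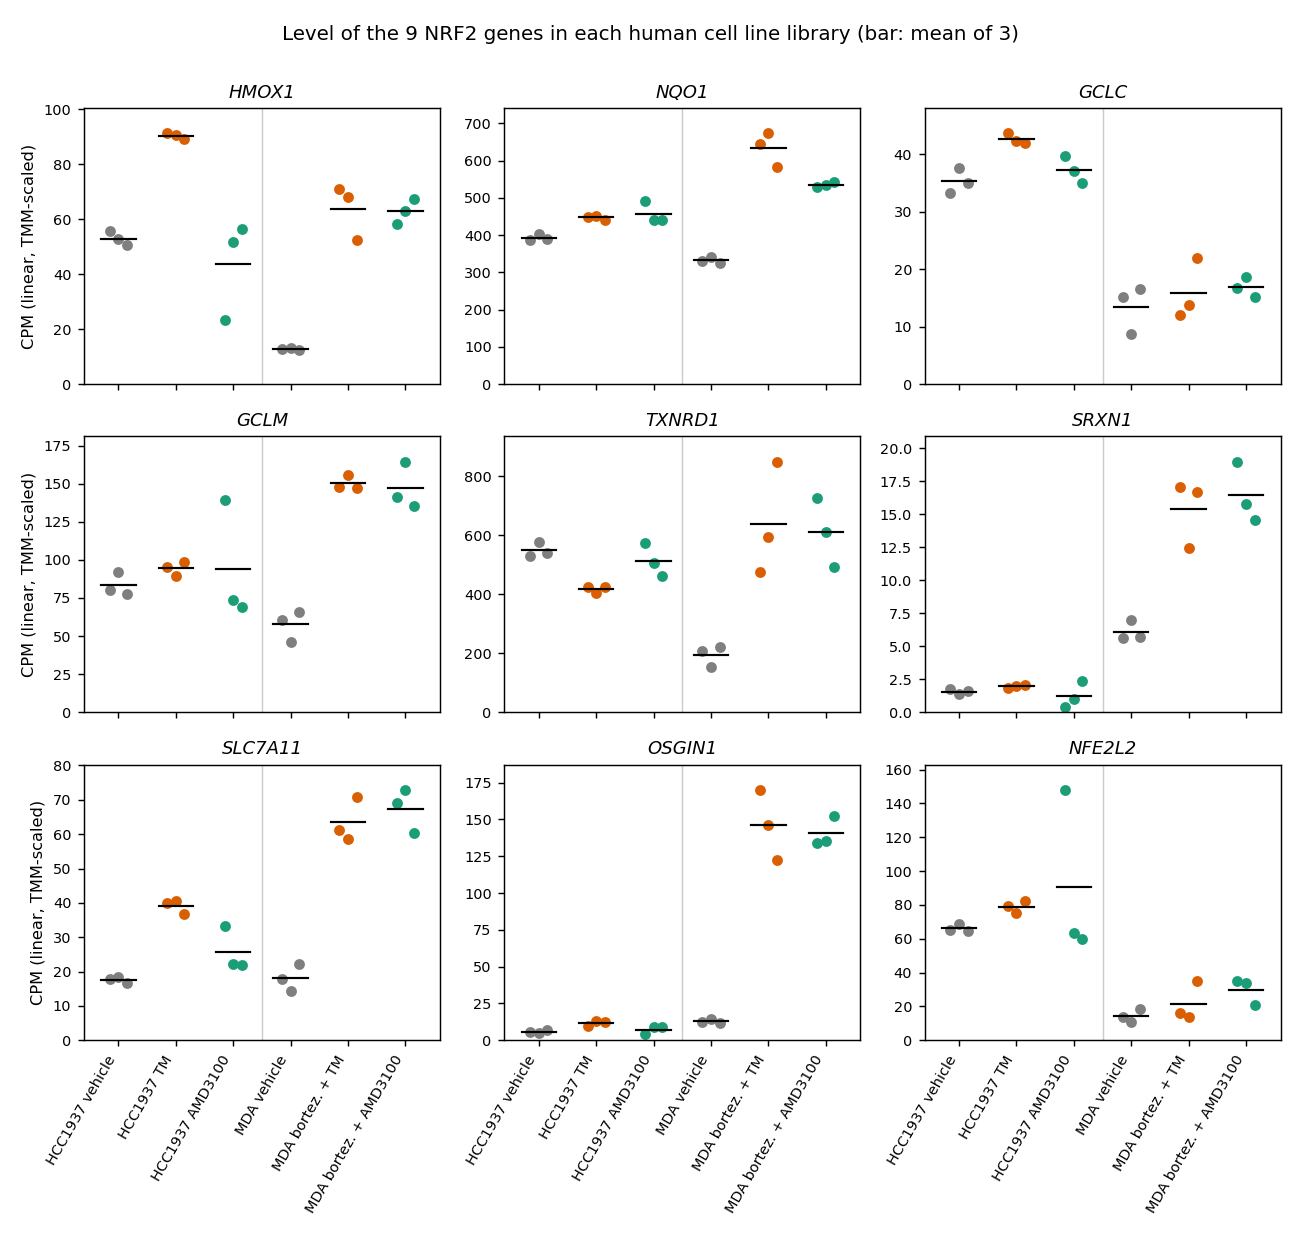
Level of each gene in CPM (TMM-scaled, linear axis from 0) in every human library, with HCC1937 to the left and MDA-MB-231 to the right of the grey line, each scaled within its own table, points for libraries and bars for means of 3. OSGIN1 in the bortezomib arms of MDA-MB-231 sits at 122 to 170.2 CPM against 11.5 to 14.2 in vehicle, and 1 HCC1937 AMD3100 library lies apart in HMOX1, GCLM and NFE2L2.

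The first comparison asks how TM alone moved these genes in HCC1937. SLC7A11, the cystine importer that feeds glutathione synthesis, rose 2.21-fold, and TXNRD1 fell. HMOX1, which breaks down heme, and OSGIN1 were higher in every TM library than in any vehicle library, but did not pass the test with all libraries fitted. In all, 2 of 9 members were called (1 higher, 1 lower), against 7.07% of genes tested (2.96% higher, 4.11% lower), and the median change over the 9 was 0.27 on the log2 scale against -0.0037 over all genes tested.

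SLC7A11 was at 17.9, 18.6 and 16.6 CPM in the vehicle libraries and at 40.05, 40.6 and 36.7 CPM under TM. The groups are far apart, and the change was 1.15 on the log2 scale (SE 0.17, edgeR quasi-likelihood test with Benjamini-Hochberg adjustment, adjusted p = 0.00535). Over the 14 alternatives its adjusted p ran from 8.72e-13 to 0.0368.

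TXNRD1 was at 529.9, 578 and 540.5 CPM in vehicle and at 423, 404 and 424 CPM under TM. All TM libraries lay below all vehicle libraries, a change of -0.40 (SE 0.099, edgeR adjusted p = 0.0451). The call was lost when any 1 vehicle or TM library was left out (edgeR adjusted p from 0.117 to 0.166) and, with median-of-ratios scaling, at an adjusted p of 0.0577. Over all alternatives the edgeR, DESeq2 and voom adjusted p ran from 5.82e-09 to 0.409.

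HMOX1 was at 55.7, 52.8 and 50.5 CPM in vehicle and at 91.3, 90.7 and 89.2 CPM under TM. The libraries do not overlap, and the log2 change was 0.77 (SE 0.27, edgeR adjusted p = 0.142). OSGIN1 was at 5.82, 5.22 and 6.70 CPM in vehicle and at 9.91, 13.2 and 12.4 CPM under TM, a change of 1.00 (SE 0.29, edgeR adjusted p = 0.0798). Both groups again stay apart for OSGIN1.

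Glutathione synthesis starts with the 2 subunits of glutamate-cysteine ligase, GCLC being catalytic and GCLM its modifier. GCLC was at 33.3, 37.7 and 35.0 CPM in vehicle and at 43.6, 42.3 and 41.9 CPM under TM, with no overlap (log2 change 0.27, edgeR adjusted p = 0.143). GCLM overlapped, at 80.3, 92.0 and 77.4 CPM in vehicle and 95.3, 89.3 and 98.5 CPM under TM (0.18, edgeR adjusted p = 0.779).

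NQO1 was at 388, 402 and 390.4 CPM in vehicle and at 449, 452 and 441 CPM under TM (log2 change 0.19, edgeR adjusted p = 0.245). NFE2L2 itself was at 65.2, 68.7 and 64.4 CPM against 79.4, 74.97 and 82.2 CPM (0.26, edgeR adjusted p = 0.746). Neither gene overlapped between the groups and neither was called. SRXN1, near the floor at 1.34 to 2.05 CPM in these 6 libraries, gave 0.33 (edgeR adjusted p = 0.828). Of the 9 members 7 lay wholly above vehicle and 1 wholly below, where 51.6% of all genes tested did not overlap (25.2% above, 26.4% below).

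Fitted without AMD3100 replicate 1, a library of neither group in this comparison, 7 members were called higher and 1 lower against 40.8% of genes. All but SRXN1 were then called by edgeR: HMOX1 (0.77, adjusted p = 6.05e-12), OSGIN1 (1.00, adjusted p = 3.33e-07), SLC7A11, TXNRD1, NQO1, GCLC, GCLM and NFE2L2. The changes stayed as they were and the fitted spread fell: the SE of HMOX1 went from 0.27 to 0.055.

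AMD3100 alone in HCC1937 moved no member past the test. In the 3 AMD3100 libraries HMOX1 was at 23.2, 51.6 and 56.6 CPM, GCLM at 139, 73.9 and 68.7 CPM and NFE2L2 at 148, 63.6 and 59.8 CPM. Replicate 1, listed first, stood apart in each, low for HMOX1 and high for GCLM and NFE2L2, and the other 2 lay near the vehicle range. Gene lengths are 2306 bases for HMOX1, 5426 for GCLM and 14975 for NFE2L2. Among the other members, replicate 1 was the lowest AMD3100 library for SRXN1 (2528 bases) and OSGIN1 (5558 bases). It was the highest for NQO1 (2971 bases), TXNRD1 (6710), GCLC (8618) and SLC7A11 (9645). Replicate 1 also had the highest balance of long against short genes in HCC1937. The part of that balance in these values was not tested. SLC7A11 was at 33.2, 22.1 and 21.96 CPM, all above the 16.6 to 18.6 CPM of vehicle (0.54, edgeR adjusted p = 0.882). NQO1, at 493, 439.6 and 441 CPM, also lay above vehicle (0.22, edgeR adjusted p = 0.882). These 2 of 9 did not overlap, as 11.4% of all genes did not.

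In the comparison of AMD3100 with vehicle edgeR called 0 of 9 members and 0% of genes, with 951 of 19461 genes (4.89%), among them 2 of the 9, at an unadjusted p under 0.05 and 39 genes called by DESeq2. TXNRD1 was at 573, 506 and 462 CPM (-0.097, edgeR adjusted p = 0.887), GCLC at 39.8, 37.0 and 34.9 CPM (0.076, adjusted p = 0.896), and OSGIN1 at 4.02, 9.22 and 8.69 CPM (0.31, adjusted p = 0.887). SRXN1 ranged from 0.411 to 2.38 CPM. Without replicate 1, edgeR called 4 of 9 members against 8.14% of genes: SLC7A11 (0.34, adjusted p = 0.0133), OSGIN1 (0.62, adjusted p = 0.00805) and NQO1 (0.18, adjusted p = 0.00447) higher, and TXNRD1 lower (-0.16, adjusted p = 0.0247). That fit rests on 2 AMD3100 libraries.

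Set directly against TM at the same 10 µM, AMD3100 gave 0 of 9 members called, where 8.22% of genes were. The libraries of 5 of 9 members did not overlap, beside 33.6% of all genes. HMOX1 was nearest to the threshold (-1.05, 95% interval -1.66 to -0.43, edgeR adjusted p = 0.0501), then SLC7A11 (-0.60, interval -0.98 to -0.23, adjusted p = 0.059). Without replicate 1, 7 members were called against 36.5% of genes. HMOX1 (-0.72), SLC7A11 (-0.81), GCLM (-0.39), OSGIN1 (-0.39), NFE2L2 (-0.33) and GCLC (-0.22) were lower with AMD3100 than with TM and TXNRD1 (0.23) was higher, at edgeR adjusted p from 3.54e-10 to 0.0334. HMOX1 passed under 6 of 13 alternatives, among them leaving out AMD3100 replicate 3 (-1.27, adjusted p = 0.0418). NQO1 did not separate the compounds in either fit (0.033, interval -0.15 to 0.22 with all libraries).

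In MDA-MB-231 the combination of bortezomib with TM raised most of the set. OSGIN1 rose 11.5-fold, HMOX1 4.98-fold, SLC7A11 3.50-fold, TXNRD1 3.31-fold, GCLM 2.61-fold, SRXN1 2.52-fold and NQO1 1.90-fold. edgeR called 7 of 9 members, all higher, where 51.7% of the genes tested were called and 24.1% were higher. The same 7 did not overlap with vehicle, beside 58.4% of all genes. The median change of the 9 was 1.39 on the log2 scale against -0.090 over all genes. GCLC and NFE2L2 were not called.

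OSGIN1 was at 12.6, 14.2 and 11.5 CPM in vehicle, and at 170.2, 146 and 122 CPM with bortezomib and TM. Every treated library was far above every vehicle library, with a log2 change of 3.52 (SE 0.15, edgeR adjusted p = 1.11e-08). With bortezomib and AMD3100 OSGIN1 was at 134, 135 and 153 CPM, a change of 3.46 (SE 0.15, edgeR adjusted p = 1.77e-08).

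HMOX1 was at 12.9, 13.2 and 12.4 CPM in vehicle, at 71.0, 68.1 and 52.5 CPM with bortezomib and TM, and at 58.3, 63.1 and 67.2 CPM with bortezomib and AMD3100. The vehicle libraries lie within 1 CPM of each other and far below both arms. The changes were 2.31 (SE 0.14, edgeR adjusted p = 1.44e-07) and 2.29 (SE 0.14, adjusted p = 1.90e-07).

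NQO1, with the highest RPKM of the set in every human group, was at 331, 340.3 and 326 CPM in vehicle and at 644, 673 and 582 CPM with bortezomib and TM. The AMD3100 arm was at 528, 535 and 543 CPM, below all 3 libraries of the TM arm. The changes against vehicle were 0.93 (SE 0.086, edgeR adjusted p = 4.01e-06) and 0.69 (SE 0.085, adjusted p = 4.92e-05).

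SLC7A11 was at 17.8, 14.5 and 22.2 CPM in vehicle, 61.2, 58.5 and 70.9 CPM in the TM arm and 69.0, 72.9 and 60.3 CPM in the AMD3100 arm. Both arms lay above vehicle, by 1.81 (SE 0.16, edgeR adjusted p = 3.02e-06) and 1.89 (SE 0.16, adjusted p = 2.82e-06).

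GCLM and GCLC, the subunits of 1 enzyme, gave different calls. GCLM was at 60.5, 46.2 and 66.03 CPM in vehicle, 148, 156 and 147 CPM in the TM arm and 141, 165 and 135 CPM in the AMD3100 arm, with changes of 1.39 (edgeR adjusted p = 5.68e-06) and 1.35 (adjusted p = 8.50e-06). GCLC was at 15.2, 8.65 and 16.5 CPM in vehicle, 11.9, 13.8 and 21.96 CPM in the TM arm and 16.8, 18.5 and 15.2 CPM in the AMD3100 arm. All 3 groups of GCLC overlap, and its changes were 0.24 (95% interval -0.34 to 0.82, edgeR adjusted p = 0.474) and 0.33 (interval -0.25 to 0.91, adjusted p = 0.341). The difference between the subunits themselves was not tested.

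TXNRD1 was at 206, 153 and 222 CPM in vehicle, 475, 595 and 850.2 CPM in the TM arm and 727, 612 and 493 CPM in the AMD3100 arm. The arms overlap each other and both lie above vehicle, by 1.73 (SE 0.22, edgeR adjusted p = 4.10e-05) and 1.66 (SE 0.22, adjusted p = 6.93e-05). SRXN1 was at 5.60, 7.01 and 5.72 CPM in vehicle, 17.04, 12.5 and 16.7 CPM in the TM arm and 19.004, 15.8 and 14.6 CPM in the AMD3100 arm (1.33 and 1.43, edgeR adjusted p = 8.83e-05 and 6.74e-05).

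NFE2L2, the regulator, was at 13.7, 10.9 and 18.6 CPM in vehicle, 16.4, 13.7 and 34.9 CPM in the TM arm and 35.0, 33.7 and 20.9 CPM in the AMD3100 arm. The TM arm overlaps vehicle and the AMD3100 arm does not. The changes were 0.59 (SE 0.33, edgeR adjusted p = 0.158) and 1.05 (SE 0.34, adjusted p = 0.0222). The second call was lost at an adjusted p of 0.0682 to 0.0851 when vehicle replicate 1 or 2, or AMD3100 arm replicate 1 or 2, was left out. Without TM arm replicate 3, the library with 34.9 CPM, the first was 0.088 (edgeR adjusted p = 0.783). It passed in DESeq2 (0.66, adjusted p = 0.049) and in edgeR with no low-count filter (0.59).

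With bortezomib and AMD3100, 8 of 9 members were called, all higher, where 46.5% of genes were called and 22.3% were higher, and none of the 8 overlapped with vehicle, beside 57.9% of all genes not overlapping. The median of the 9 changes was 1.43 against -0.049 over all genes. The arms share their vehicle libraries. Between them, edgeR called 0 of 9 members and 0% of genes (1464 of 16498 genes, 8.87%, and 1 of the 9, at an unadjusted p under 0.05, and 52 genes in DESeq2).

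The 95% interval of the difference, AMD3100 arm minus TM arm, ran from -0.30 to 0.26 for HMOX1, -0.34 to 0.23 for OSGIN1, -0.25 to 0.43 for SLC7A11, -0.32 to 0.25 for GCLM and -0.30 to 0.49 for SRXN1. The farthest of these bounds from 0 is 0.49. They were wider for TXNRD1 (-0.52 to 0.39), GCLC (-0.50 to 0.66) and NFE2L2 (-0.26 to 1.19). NQO1 alone of the 9 did not overlap between the arms, as 13.4% of all genes did not, at -0.24 (interval -0.43 to -0.056, unadjusted p = 0.0151 and adjusted p = 0.480 by edgeR).

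**Figure D2:**
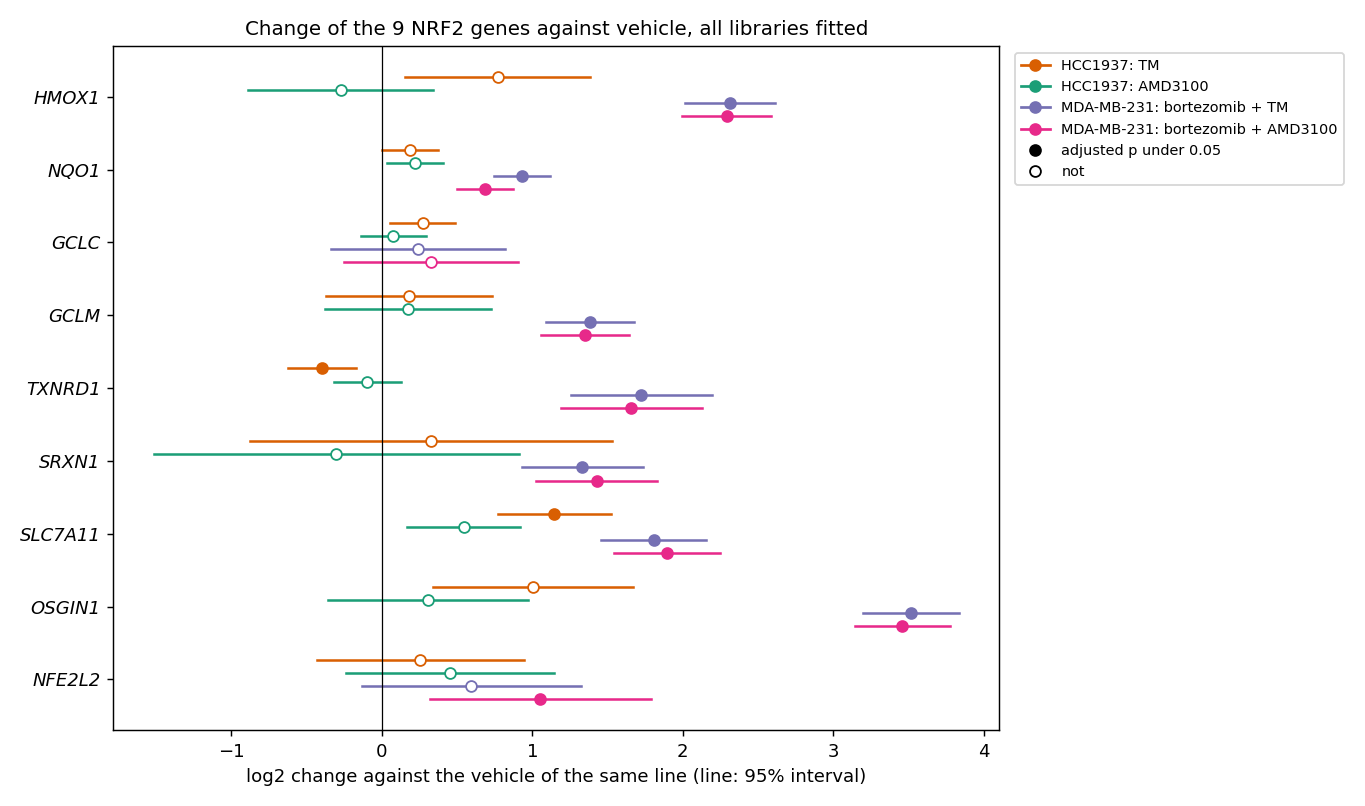
Log2 change of each gene against the vehicle of its own line (points, with lines for 95% intervals), from the fits over all 9 libraries of a line, filled where the adjusted p was under 0.05. In MDA-MB-231 the intervals of GCLC in both arms and of NFE2L2 in the TM arm include 0 and the others lie above it, while in HCC1937 SLC7A11 (1.15) and TXNRD1 (-0.40) under TM are the filled points.

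Libraries of MDA-MB-231 also differed in how long and short genes were represented. The balance, the median log2 deviation of the longest 25% of genes minus that of the shortest 25%, was 0.19, 0.014 and 0.27 in vehicle, -0.37, -0.36 and 0.019 in the TM arm and 0.087, 0.074 and -0.12 in the AMD3100 arm. Within each group TXNRD1 followed the order of this balance, and so did NFE2L2 in the AMD3100 arm and in vehicle. In the TM arm its highest value, 34.9 CPM, was in the library of highest balance. GCLC likewise had its lowest vehicle value, 8.65 CPM, in the library of lowest balance and its highest value, 21.96 CPM, in the TM arm library of highest balance.

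With the balance as a covariate, chosen after the data were seen, all 9 members were called higher in both arms. The share of all genes called against vehicle in that fit is not given here. The count is therefore not read as particular to the members. GCLC then changed by 1.1103 and 0.68 (edgeR adjusted p = 0.000172 and 0.000524) and NFE2L2 by 1.75 and 1.505 (adjusted p = 8.87e-08 and 7.14e-09). Between the arms TXNRD1 was then lower with AMD3100 (-0.53, adjusted p = 0.00343), as 1755 genes were called, and the other 8 were not called. The balance is itself computed from these libraries and differs between the groups.

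**Figure D3:**
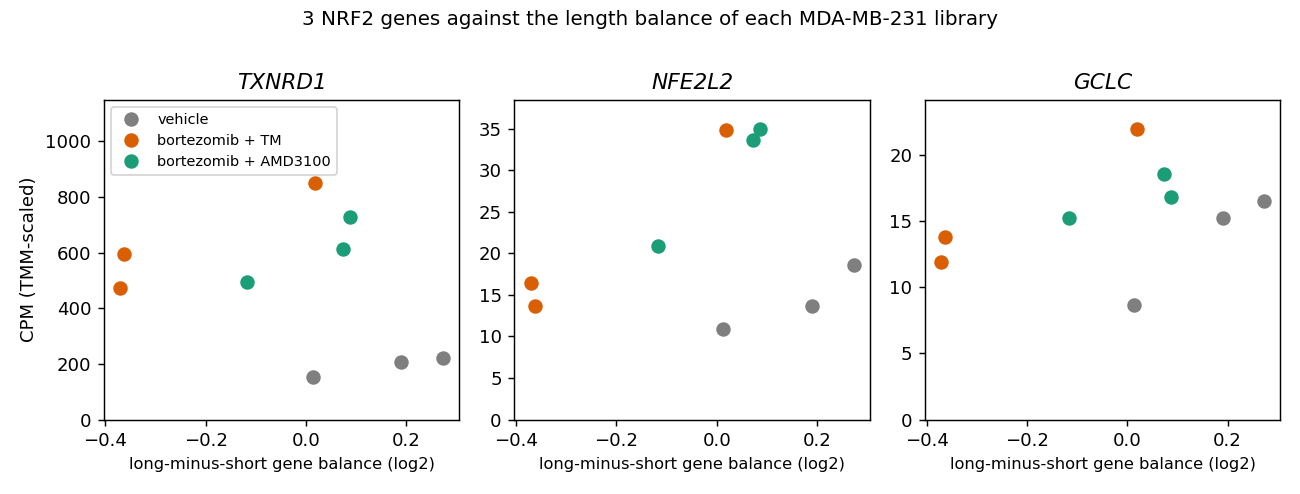
CPM of TXNRD1, NFE2L2 and GCLC (linear axes from 0) against the long-minus-short gene balance (log2) of each MDA-MB-231 library, coloured by group. Within the bortezomib + TM group the library at 0.019 holds the highest value of all 3 genes.

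Responses of the lines differed for most members. In the joint fit, the change against vehicle in the TM arm was larger in MDA-MB-231 than in HCC1937 for 6 of 9 members, against 21.6% of genes called in either direction and 11.2% higher. OSGIN1 (difference 2.57, edgeR adjusted p = 2.13e-05), TXNRD1 (2.16), which fell in one line and rose in the other, and HMOX1 (1.60) differed most. In the AMD3100 arm it was larger for 7 of 9, against 19.5% and 9.79% higher, led by OSGIN1 (3.17) and HMOX1 (2.59). Without the HCC1937 library AMD3100 replicate 1 these counts were 7 (32.6% of genes) and 8 (26.7%), and with library sizes alone as the scaling they were 3 and 5. For library sizes alone the share of all genes called is not given here. In the TM arm SLC7A11 (0.71, adjusted p = 0.046) lost its call under 15 of 20 alternatives (adjusted p from 0.00598 to 0.689). In the AMD3100 arm SRXN1 (1.74, adjusted p = 0.02) lost it under 5 of 19 and NQO1 (0.49, adjusted p = 0.0142) under 4 of 19. GCLC was not called in either arm (0.0079 and 0.26). Bortezomib was given to MDA-MB-231 only, so the drug, the line and the table cannot be told apart.

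The partners of NRF2 in the same cells are given by role, on lists also chosen with earlier results of these data known. Of 57 other pathway genes on 6 lists, 54 were tested in HCC1937, and TM raised 5 and lowered 4, where 2.96% of all genes were called higher and 4.11% lower. Among regulators, small MAF genes MAFF and MAFG rose. MAFF went from 8.08 ± 1.56 to 32.7 ± 0.230 CPM (mean ± SD, n = 3 each; log2 change 2.02, edgeR adjusted p = 0.00806) and MAFG from 127 ± 5.18 to 194 ± 6.31 CPM (0.61, adjusted p = 0.00805). The other small MAF gene, MAFK, was at 49.6 ± 1.47 and 97.1 ± 3.25 CPM and was not called (0.97, edgeR adjusted p = 0.0781). KEAP1 (0.38, adjusted p = 0.068), BACH1 (0.56, adjusted p = 0.325), NFE2L1 (0.43, adjusted p = 0.258), the NRF2 relative that drives proteasome genes, and SQSTM1 (0.21, adjusted p = 0.259), the autophagy adaptor that binds KEAP1, were not called. Of the regulator list 2 of 10 rose and 0 fell, and its median was 0.40 against -0.0037 over all genes.

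In the other lists in HCC1937, CHAC1, which degrades glutathione, rose (1.47, adjusted p = 0.0364) and GSS, which completes glutathione synthesis, fell (-0.85, adjusted p = 0.0293). The mitochondrial peroxiredoxin PRDX3 fell (-0.39, adjusted p = 0.0360), as did FECH, which inserts iron into heme (-0.84, adjusted p = 0.00127), and PIR (-0.74, adjusted p = 0.00299). The exporter ABCC3 rose (0.45, adjusted p = 0.0236). FTH1, the ferritin heavy chain, was called higher (1.73, adjusted p = 0.00124, edgeR as for all of these). Its mean of 3.71 CPM in vehicle and 12.4 CPM under TM is uncertain, since it has many near-identical copies. No gene of the NADPH list was called. Fitted without AMD3100 replicate 1 the 6 lists held 22 higher and 15 lower of 54, where 19.4% of all genes were called higher and 21.4% lower. The 9 genes called with all libraries were among them in the same directions, and MAFK, KEAP1, BACH1, NFE2L1 and SQSTM1 were then called higher too.

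In MDA-MB-231, 34 of 55 tested pathway genes rose and 4 fell with bortezomib and TM, where 24.1% of all genes were called higher and 27.6% lower. With bortezomib and AMD3100, 30 rose and 3 fell, beside 22.3% and 24.2% of all genes. SQSTM1 rose from 225 ± 37.4 to 2509 ± 269 CPM (3.48, edgeR adjusted p = 1.11e-08) and MAFF from 39.97 ± 6.14 to 443 ± 51.7 CPM (3.47, adjusted p = 1.11e-08). KEAP1 (0.59, adjusted p = 0.00126) and NFE2L1 (0.71, adjusted p = 0.000334) also rose, while BACH1 was at 0.78 (adjusted p = 0.066) in this arm and rose in the AMD3100 arm (1.26, adjusted p = 0.00811). Of the 10 regulators 7 rose in the TM arm and 8 in the AMD3100 arm.

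Of 10 tested glutathione genes 6 rose and 1, GPX1 (-0.67, adjusted p = 0.00140), fell in the TM arm. SLC3A2, the heavy chain that carries SLC7A11 to the membrane, rose by 2.68 (adjusted p = 1.11e-08) and CHAC1 by 2.95 (adjusted p = 5.20e-07). On the thioredoxin list 6 of 10 rose, led by TXNL1 (1.44) and PRDX1 (1.28), and the mitochondrial reductase TXNRD2 fell (-0.80, adjusted p = 0.000205). On the NADPH list 5 of 6 rose, among them the pentose phosphate enzymes TALDO1 (1.404) and PGD (0.78). Of the heme and iron list 3 of 7 rose: the ferritin light chain FTL (2.67), the flavin reductase BLVRB (2.41) and BLVRA (0.35), which reduces the biliverdin that HMOX1 makes. Of the detoxification genes 7 of 12 rose, with PIR (1.73) and TRIM16 (1.61) foremost by p, and ABCC1 (-0.65) and ABCC3 (-1.001) fell. ABCC3 rose in HCC1937 and fell here, and PIR did the reverse. That contrast was read from the separate fits.

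**Figure D4:**
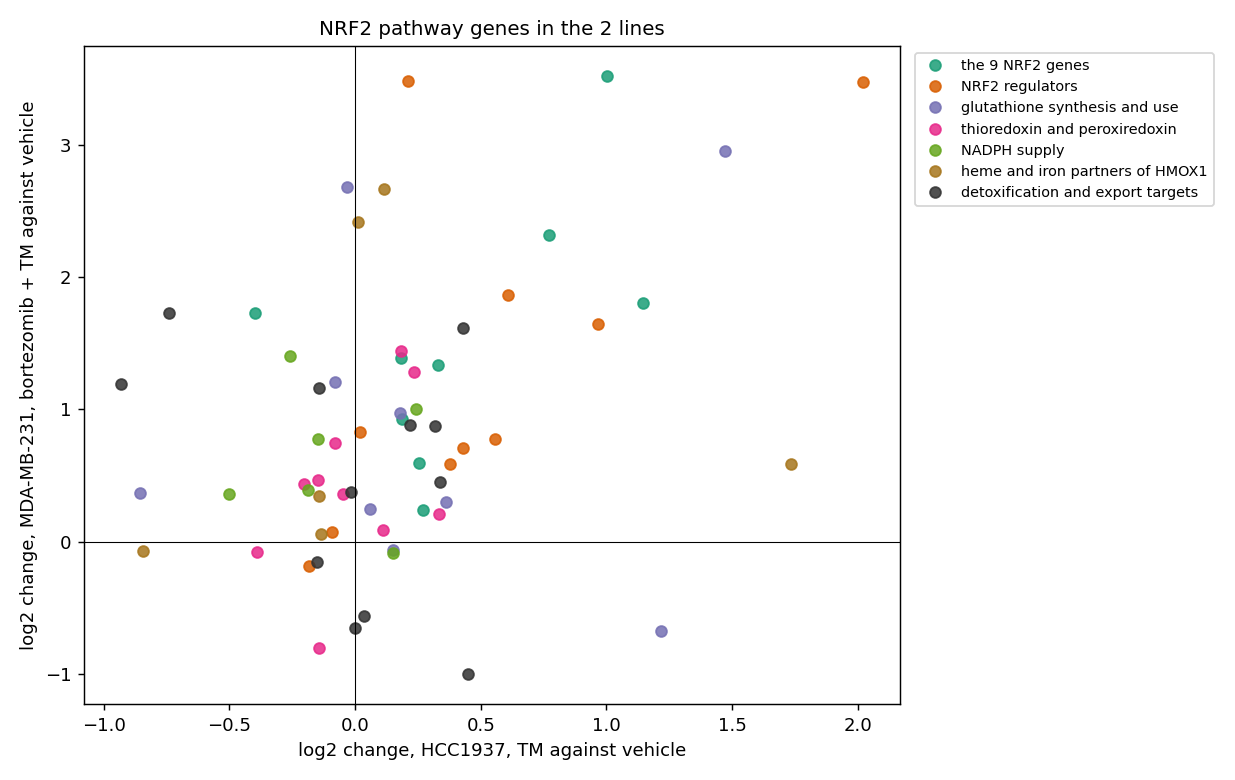
Log2 change of each NRF2 pathway gene with bortezomib + TM against vehicle in MDA-MB-231 (vertical axis) and with TM against vehicle in HCC1937 (horizontal axis), coloured by list. Most points lie above the horizontal line (34 of 55 tested genes besides the 9 were called higher in MDA-MB-231) and fall on both sides of 0 along the HCC1937 axis, with MAFF at the far right (2.02 and 3.47).

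Across libraries, 6 members followed HMOX1 closely in MDA-MB-231. Over the 9 MDA-MB-231 libraries Pearson's r of log2 CPM with HMOX1 was 0.998 for OSGIN1, 0.968 for NQO1, 0.967 for GCLM, 0.961 for SLC7A11, 0.948 for SRXN1 and 0.906 for TXNRD1, but 0.525 for NFE2L2 and 0.323 for GCLC. Over the 9 HCC1937 libraries it was 0.867 for OSGIN1 and 0.850 for SRXN1, -0.831 for TXNRD1 and -0.528 for NFE2L2. Over the 8 HCC1937 libraries without AMD3100 replicate 1 these became 0.792 for OSGIN1, 0.522 for SRXN1, -0.899 for TXNRD1 and 0.889 for NFE2L2, which changed sign, and SLC7A11 went from 0.358 to 0.968. These values describe libraries that share their groups. The 6 members close to HMOX1 in MDA-MB-231 are those called higher in both arms besides it, so their r includes that group change. The share of all genes with such an r is not given here. The named genes most like HMOX1 over the 18 human libraries, of 10210 eligible, were SUPT7L (r 0.976), a SAGA complex subunit, the stress transcription factor DDIT3 (0.973), the phosphatase gene DUSP8 (0.972), the apoptosis gene BBC3 (0.970) and the AP-1 relative JDP2 (0.966). Over the 17 libraries without AMD3100 replicate 1, DUSP8 (0.994) and DDIT3 (0.982) stayed among the 5 most like it, and SUPT7L (0.975), BBC3 (0.974) and JDP2 (0.971) ranked 7, 8 and 11. DDIT3 was at a mean of 14.6 CPM in HCC1937 vehicle and 25.8 CPM under TM, and at 3.39 CPM in MDA-MB-231 vehicle, 18.03 CPM with bortezomib and TM and 19.003 CPM with bortezomib and AMD3100.

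In the 4T1 tumours edgeR called 0 of 9 members and 0% of genes in each of the 3 comparisons. With bortezomib and TM, 688 of 15846 genes (4.34%) and 2 of the 9, Slc7a11 and Osgin1, were at an unadjusted p under 0.05. With bortezomib and AMD3100, 1144 genes (7.22%) and Gclc and Osgin1 were. Between the arms 454 genes (2.87%) and Nqo1 were. DESeq2 called 3, 17 and 6 genes in these comparisons and none of the 9. A bulk tumour holds many cell types, and fewer cells of a type cannot be told apart from less RNA per cell.

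Osgin1 was at 20.1, 22.1 and 19.2 CPM in vehicle tumours, 17.2, 12.9 and 13.8 CPM with bortezomib and TM and 14.6, 14.4 and 13.95 CPM with bortezomib and AMD3100. All 6 treated tumours lay below all 3 vehicle tumours, the opposite side from MDA-MB-231. The log2 differences were -0.49 (95% interval -0.83 to -0.14, edgeR adjusted p = 0.887) and -0.52 (interval -0.86 to -0.17, adjusted p = 0.634), with unadjusted p = 0.0105 and 0.00763 by edgeR. The 7 macrophage markers, none of them at 0, had a lower sum in both arms. It was 1665 to 1998 CPM in vehicle, 845 to 1464 CPM in the TM arm and 1039 to 1346 CPM in the AMD3100 arm. The 4 neutrophil markers, none at 0 either, summed to 86.2 to 119 CPM in vehicle, 53.3 to 88.3 CPM in the TM arm and 38.1 to 82.2 CPM in the AMD3100 arm. The 6 epithelial markers summed to 1438 to 2369, 1036 to 1849 and 957 to 1227 CPM. The erythroid markers, 2 of 3 of them at 0 in all tumours, summed to 1.16 to 2.10, 0.675 to 1.09 and 0.773 to 2.43 CPM. Sums of the T cell, B cell, fibroblast and endothelial lists overlapped between vehicle and both arms. In the same order they were 13.5 to 76.7, 36.5 to 219 and 39.8 to 345 CPM for T cell markers. B cell markers gave 1.39 to 81.1, 1.32 to 319 and 3.04 to 466 CPM. Fibroblast markers gave 1846 to 3187, 1467 to 4457 and 2922 to 3326 CPM, and endothelial markers 166 to 238, 109 to 288 and 129 to 267 CPM. The part of these cell types in the Osgin1 values was not tested.

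Slc7a11 was at 32.8, 14.3 and 28.2 CPM in vehicle, 38.2, 37.6 and 41.4 CPM in the TM arm and 31.4, 36.04 and 37.0 CPM in the AMD3100 arm. The TM arm lay above vehicle (0.64, interval 0.060 to 1.22, edgeR adjusted p = 0.887) and the AMD3100 arm overlapped it (0.47, adjusted p = 0.636). Gclc was at 36.5, 29.4 and 33.3 CPM in vehicle, 43.4, 37.5 and 39.3 CPM in the TM arm and 46.6, 38.2 and 43.1 CPM in the AMD3100 arm. Both arms were above vehicle, by 0.28 (adjusted p = 0.887) and 0.37 (adjusted p = 0.634) in edgeR, without passing.

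The other 6 overlapped between vehicle and the TM arm. Hmox1 was at 130.3, 107 and 112 CPM in vehicle and at 85.7, 134 and 169 CPM in the TM arm (0.16, 95% interval -0.33 to 0.65). Its AMD3100 arm was at 115, 136 and 110.0 CPM (0.048, interval -0.44 to 0.54).

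Nqo1, at 2.55 to 7.01 CPM over the 9 tumours, was low. Its TM arm was at 5.04, 7.01 and 6.44 CPM and its AMD3100 arm at 3.65, 2.55 and 4.74 CPM, which do not overlap (-0.76, unadjusted p = 0.0365, edgeR adjusted p = 0.996). Txnrd1 ran from 175 to 246 CPM and Nfe2l2 from 101 to 141 CPM, with overlap in every comparison with vehicle. Gclm was at 37.0 to 39.1 CPM in vehicle and spread over 33.5 to 51.3 CPM in the treated tumours. Srxn1 was at 52.3, 58.0 and 48.5 CPM in vehicle and at 44.3, 47.4 and 45.5 CPM in the AMD3100 arm, just below (-0.21, edgeR adjusted p = 0.742). Against vehicle, 3 of 9 members did not overlap in each arm, beside 9.97% and 13.4% of all genes, and 2 of 9 between the arms, beside 7.37%. Of the 55 other pathway genes tested in the tumours 0 were called, as for all genes.

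**Figure D5:**
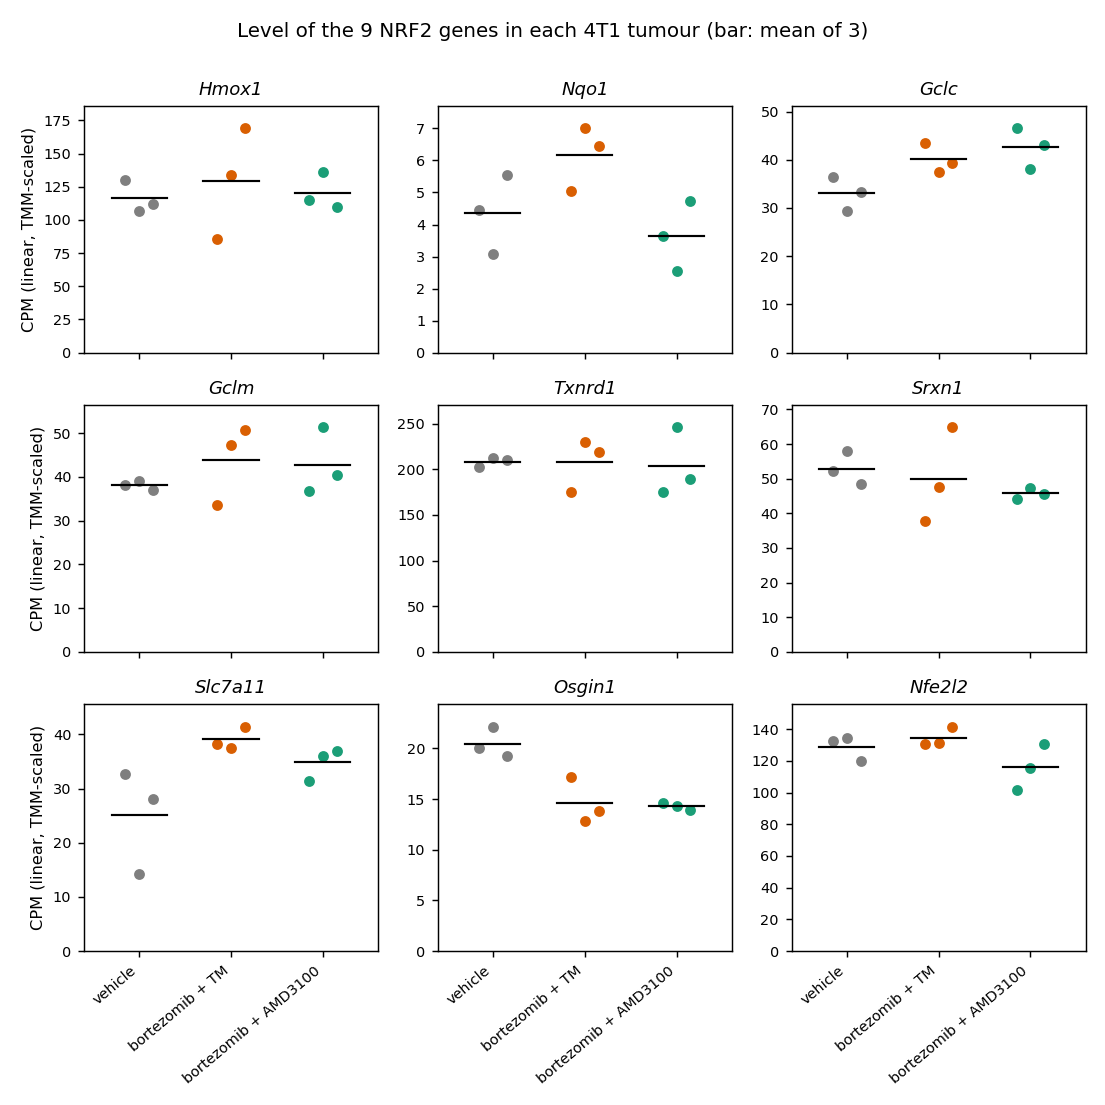
Level of each mouse ortholog in CPM (TMM-scaled, linear axis from 0) in every 4T1 tumour, with bars for means of 3. Osgin1 is lower in all 6 treated tumours (12.9 to 17.2 CPM) than in vehicle (19.2 to 22.1 CPM), and most other genes overlap between groups.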

How the data were processed

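Gene-level counts were used as deposited by the authors, 1 table per dataset. The submitters' processing notes name featureCounts 2.0.1, MultiQC 1.11 and the GRCh38 and GRCm38 builds. The aligner, the annotation and the strand setting are not given in the sources used here. Human Ensembl identifiers were named through an identifier table (61481 of 78932 matched).

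For each dataset edgeR 4.0.16 (R 4.3.3) was run on its 9 libraries, with filterByExpr, TMM scaling, 1 coefficient per group and quasi-likelihood F tests. A joint run took all 18 human libraries. Benjamini-Hochberg adjustment covered every tested gene, and calls needed an adjusted p under 0.05. SE was obtained as the size of the log2 change over the root of F. CPM are TMM-scaled, and RPKM use the length column of the human tables. Alternatives were DESeq2 1.42.0, limma 3.58.1 (voom), median-of-ratios scaling, no low-count filter, an adjusted p under 0.01, a replicate block, the 2 groups alone, library sizes alone in the joint run (added after seeing the data), and each library left out. The scripts were tested on simulated data.

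The members and lists were chosen with earlier results of these data known. Besides the members, the text names the 2 called genes with the smallest p of each list in the TM comparisons of the human lines, KEAP1, BACH1, NFE2L1 and SQSTM1, and the 5 genes most like HMOX1 with a mean of at least 5 CPM. Any other gene was chosen after its values were seen.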

Additional observations from a re-analysis of the deposited data

Results flagged for a closer look

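Response differences between the lines, MDA-MB-231 minus HCC1937, passed the edgeR quasi-likelihood test at an adjusted p under 0.05 for 6 members in the TM arm and 7 in the AMD3100 arm. In the TM arm they were 1.60 for HMOX1, 0.80 for NQO1, 1.25 for GCLM, 2.16 for TXNRD1, 0.71 for SLC7A11 and 2.57 for OSGIN1 on the log2 scale. In the AMD3100 arm they were 2.59 for HMOX1, 0.49 for NQO1, 1.19 for GCLM, 1.76 for TXNRD1, 1.74 for SRXN1, 1.36 for SLC7A11 and 3.17 for OSGIN1. TXNRD1 in the TM arm is the member called in opposite directions in the separate fits (-0.40 in HCC1937 and 1.73 in MDA-MB-231). Without the HCC1937 library AMD3100 replicate 1 the AMD3100 arm differences were 2.28 for HMOX1 and 2.88 for OSGIN1, and NFE2L2 passed too, at 1.15 (adjusted p = 0.027). The SLC7A11 difference in the TM arm (adjusted p = 0.046) lost its call under 15 of 20 alternatives. Bortezomib was in the MDA-MB-231 arms only.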

How the results depend on the processing

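Of the members called under TM in HCC1937 (2 with all libraries), 1 was called at an adjusted p under 0.01, 1 with median-of-ratios scaling, 1 when any vehicle or TM library was left out (1 to 1), and 6 were called by DESeq2, 8 with AMD3100 replicate 1 kept out and 8 with the 2 groups alone. Genes called went from 1376 to 491, 2632 (DESeq2), 406 to 462 (a library left out), 8318 and 8336. AMD3100 against vehicle gave 0 to 4 members with a library left out, 4 without AMD3100 replicate 1. AMD3100 against TM gave 1 (median-of-ratios), 2 (no filter), 3 (DESeq2), 2 (voom) and 0 to 7 with a library left out, 7 without AMD3100 replicate 1. In MDA-MB-231 the length balance gave 1 between the arms. Genes called where edgeR gave 0 were 161 for AMD3100 against vehicle and 177 between the MDA-MB-231 arms with no filter. With library sizes alone as the scaling, 3 members passed in the TM-arm response difference. The cause of these moves was not tested, and member counts given without a count of all genes have no background to be read against.

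The replicate numbers did not pair the samples (same-number correlations of -0.037 to 0.037, -0.32 to 0.29 and -0.47 to 0.60 in the 3 datasets). With them as a replicate block, 1 member and 718 genes were called under TM in HCC1937, TXNRD1 being lost (-0.40, adjusted p = 0.111), and no other call against vehicle changed. The block also moved genes called for AMD3100 against TM from 1599 to 725, and 2 response differences lost their call, SLC7A11 in the TM arm (0.72, adjusted p = 0.0586) and NQO1 in the AMD3100 arm (0.49, adjusted p = 0.0519).

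Some small differences changed sign. These were NQO1 (-0.037, no filter) and GCLM (0.014, 2 groups alone) for AMD3100 against TM in HCC1937, Txnrd1 with bortezomib and TM in 4T1 (0.0024 with median-of-ratios, 0.0024 in DESeq2, 0.0051 with 2 groups alone), and GCLC in the TM-arm response difference (-0.014 with median-of-ratios and -0.014 in DESeq2). With library sizes alone they were GCLM between the vehicle groups (-0.26), GCLC (-0.50) and NFE2L2 (-0.13) in the TM-arm response difference and GCLC in the AMD3100 arm (-0.087). With the length balance, the MDA-MB-231 arms differed by 0.21 for HMOX1, -0.43 for GCLC, -0.18 for SLC7A11, 0.20 for OSGIN1 and -0.25 for NFE2L2. With a library left out, AMD3100 against vehicle in HCC1937 ran from -0.51 to 0.049 for HMOX1, -0.20 to 0.34 for GCLM, -1.16 to 0.13 for SRXN1 and -0.080 to 0.66 for NFE2L2. Against TM it ran from -0.0039 to 0.054 for NQO1, -0.39 to 0.16 for GCLM and -0.33 to 0.41 for NFE2L2. Between the MDA-MB-231 arms it ran from -0.16 to 0.061 for HMOX1, -0.085 to 0.37 for GCLC, -0.12 to 0.026 for GCLM, -0.24 to 0.17 for TXNRD1, -0.036 to 0.18 for SRXN1 and -0.19 to 0.066 for OSGIN1. GCLC with bortezomib and TM ran from -0.045 to 0.42. In 4T1 with bortezomib and TM it ran from -0.083 to 0.39 for Hmox1, -0.078 to 0.11 for Txnrd1 and -0.31 to 0.091 for Srxn1. With AMD3100 it ran from -0.060 to 0.14 for Hmox1 and -0.20 to 0.064 for Txnrd1. Between the 4T1 arms it ran from -0.35 to 0.13 for Hmox1, -0.21 to 0.084 for Gclm, -0.20 to 0.066 for Txnrd1, -0.31 to 0.10 for Srxn1 and -0.11 to 0.084 for Osgin1. The TM-arm response difference ran from -0.25 to 0.19 for GCLC and -0.093 to 0.63 for NFE2L2, and GCLM between the vehicle groups from -0.030 to 0.24.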
